A study of Homo sapiens with 9 samples.

Results

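Moesin (MSN), ezrin (EZR) and radixin (RDX), the 3 ERM proteins, were examined together with their tumour suppressor relative merlin (NF2) and the membrane proteins CD44 and podocalyxin (PODXL). Members were taken by gene symbol, and all 6 of 6 had a row among the 18064 rows of the table. These genes were chosen with earlier results of the same libraries in view, so their levels across the groups are given as a description and no test is attached to them. RNA sequencing covered 9 libraries, 3 titled si-NC (a control siRNA), 3 titled si1-BCLIN25 and 3 titled si2-BCLIN25 (2 siRNAs against the RNA BCLIN25), all titled MDA-MB-231/PTX. By the design text these cells are a triple-negative breast cancer line made resistant to paclitaxel, and the comparison asks what knockdown of BCLIN25 changes in them. Cells of all 3 groups were grown in RPMI medium with serum, per the labels' protocols, and the samples' labels used here give no time after transfection.

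ERM proteins tie the cortical actin network to the plasma membrane. Their amino-terminal FERM domain binds the tails of membrane proteins and their carboxy-terminal tail binds actin, and phosphorylation together with the lipid PIP2 opens them from a folded, inactive state. Ezrin predominates in epithelial cells and moesin in leukocytes and endothelium. Merlin shares the FERM domain but acts as a growth inhibitor upstream of the Hippo kinases. CD44, the hyaluronan receptor, and podocalyxin, a sialomucin that keeps cell surfaces apart, both have tails that reach ERM proteins.

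The labels do not settle which cells were sequenced, since further fields beside the titles name PC9/GR, a gefitinib-resistant lung adenocarcinoma line, and knockdown of another RNA, HUMT. The markers did not settle it either. CDH1 lay between 31.4 and 46.5 FPKM (mapped fragments per length of transcript and per total of the library), and the mesenchymal regulator ZEB1 stayed at or below 0.14 FPKM. The mesenchymal genes VIM, AXL, CAV1, TGFBI and FOSL1 of the MDA-MB-231 list averaged 80.9, 97, 282, 229 and 186 FPKM in si-NC. On the same list LOX averaged 11.2 FPKM in si-NC, and SPARC stayed at or below 0.06 FPKM in every library. Of the epithelial list, KRT19, KRT8, KRT18 and EPCAM averaged 688, 462, 300 and 139 FPKM in si-NC. ESRP1, CLDN4 and ESRP2 averaged 53.4, 45.8 and 7.61 FPKM there. The lung gene NKX2-1 stayed at or below 0.78 FPKM. Of the same lung list, SFTPB lay between 0.75 and 1.96 FPKM, and NAPSA, SFTA2 and SFTPC stayed at or below 0.34, 0.13 and 0.06 FPKM. Of the luminal breast list, GATA3 lay between 11.2 and 18.2 FPKM, FOXA1 between 4.07 and 6.58 and ESR1 between 3.43 and 4.46. TFF1 and PGR stayed at or below 0.97 and 0.01 FPKM. BCLIN25 was not analysed here, so the knockdown was not checked. A prefix stands before the control columns alone in the header of the table, and for every comparison with si-NC the treatment and a separate handling of controls cannot be told apart. The 3 controls served for both siRNA groups. The labels do not state whether replicates came from separate cultures, so the spread between them may be technical, and sequencing depth is unknown because the table holds FPKM. In bulk RNA, fewer cells with a transcript and less transcript per cell cannot be told apart.

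Moesin was the member with the largest fold difference between the groups, while in FPKM the difference of CD44 was larger (-148 and -147, against -68.9 and -68.7 for MSN). The si-NC libraries held MSN (gene 4478, chromosome X) at 73.57, 71.49 and 73.63 FPKM, the si1-BCLIN25 libraries at 4.22, 3.88 and 3.85 FPKM and the si2-BCLIN25 libraries at 3.92, 4.57 and 3.96 FPKM. Every siRNA library lay far below every control library, and the libraries of the siRNA groups overlapped each other. The means of the 3 groups, in the same order, were 72.9 ± 1.2, 3.98 ± 0.21 and 4.15 ± 0.36 FPKM (SD, n = 3 each), so that 5.46% and 5.69% of the control level were left, 18.3-fold and 17.6-fold lower. On the log2(FPKM + 1) scale the differences from si-NC were -3.89 and -3.85, the third lowest of 12317 genes in each comparison. That scale shrinks differences of weakly expressed genes, so the rank holds for it and not for fold differences. Genes entered that ranking when at least 3 libraries reached 1 FPKM, which all 6 members did. The mean level of MSN stood at the 91.9th percentile of these genes in si-NC, among the abundant transcripts, and at the 20.5th and 21.1th percentiles in the siRNA groups.

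Ezrin, the most abundant of the 3 ERM transcripts in every library, lay close to its control level. EZR (gene 7430, chromosome 6) measured 193.91, 194.69 and 196.77 FPKM in si-NC, 179.21, 184.75 and 177.09 FPKM in si1-BCLIN25 and 185.53, 180.80 and 187.46 FPKM in si2-BCLIN25. All siRNA libraries were below all controls, but by little. The means of 195 ± 1.5, 180.4 ± 4.0 and 184.6 ± 3.4 FPKM (SD, n = 3 each) put the siRNA groups at 92.4% and 94.6% of si-NC. The log2 differences of -0.11 and -0.08 were larger in size than those of only 29.5% and 21.4% of the genes.

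Radixin, the remaining ERM paralog, did not separate the groups. RDX (gene 5962, chromosome 11) was read at 36.48, 34.14 and 38.26 FPKM in si-NC, at 36.81, 33.65 and 34.92 FPKM in si1-BCLIN25 and at 34.38, 37.31 and 38.78 FPKM in si2-BCLIN25. The 3 groups overlapped throughout, with means of 36.3 ± 2.1, 35.1 ± 1.6 and 36.8 ± 2.2 FPKM (SD, n = 3 each). Its log2 differences from si-NC were -0.05 and 0.02, and the sign of the latter turned with scaling (-0.03 under median centring) and when single libraries were left out (down to -0.02).

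**Figure D1:**
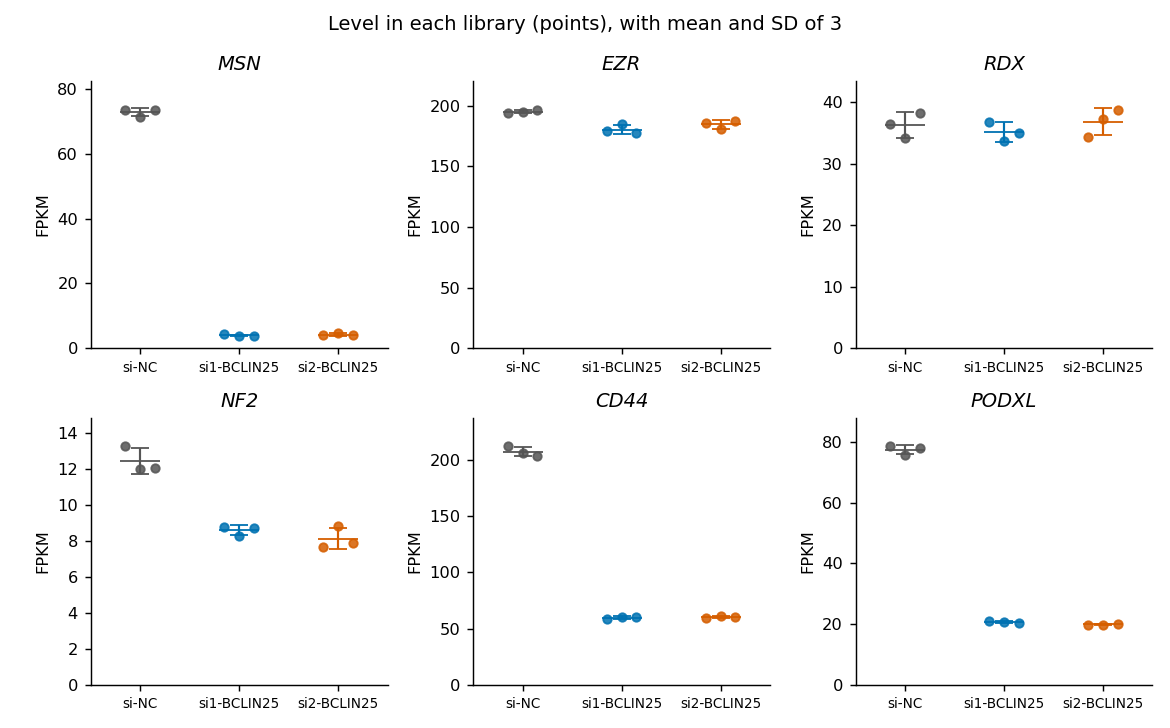
Level of each of the 6 genes in FPKM (vertical axis, from 0) in the 9 libraries, grouped as si-NC, si1-BCLIN25 and si2-BCLIN25; points are libraries, and the bar with whiskers is the mean and SD of 3. MSN has means of 72.9, 3.98 and 4.15 FPKM, CD44 and PODXL are lower than si-NC by a smaller factor, and RDX overlaps in all groups.

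Because FPKM is scaled to transcript length, the levels of the 3 ERM paralogs can be set beside each other. Their sum ran from 300.3 to 308.7 FPKM in the si-NC libraries, from 215.9 to 222.3 with si1-BCLIN25 and from 222.7 to 230.2 with si2-BCLIN25. The mean sum differed from si-NC by -84.9 and -78.7 FPKM, and MSN made up 81.2% and 87.3% of that difference. Of the ERM transcripts MSN supplied 24.0% ± 0.22 in the controls, and 1.82% ± 0.09 and 1.84% ± 0.18 with the first and second siRNA (SD, n = 3 each). The share of EZR was correspondingly 64.1%, 82.2% and 81.8%, and that of RDX 11.9%, 16% and 16.3%. In si-NC the order was EZR, MSN, RDX in all 3 libraries, whereas in all 6 siRNA libraries MSN came last. The ratio of EZR to MSN lay between 2.64 and 2.72 in the controls and between 39.6 and 47.6 in the siRNA libraries.

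**Figure D2:**
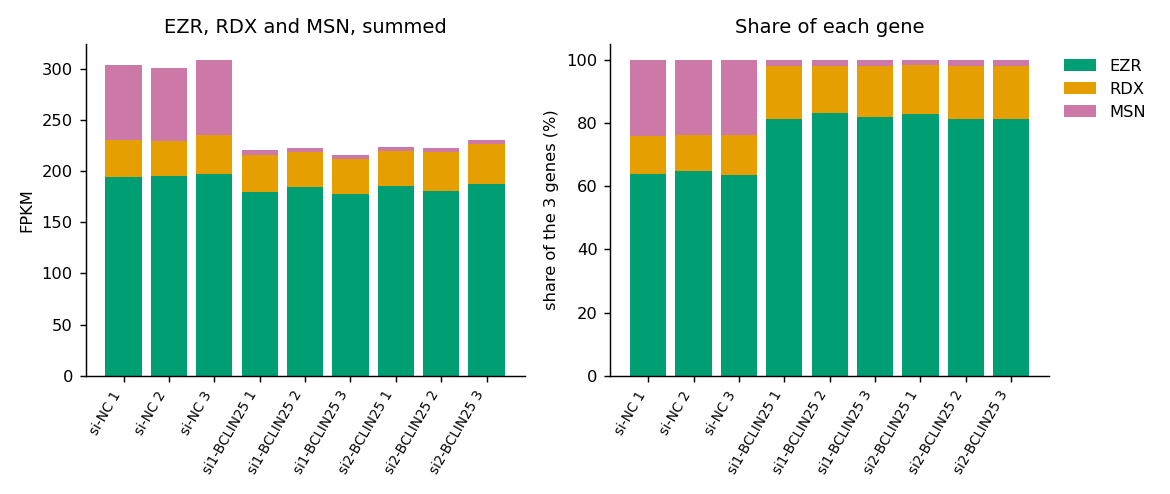
EZR, RDX and MSN in each of the 9 libraries, stacked as FPKM (left) and as the share of their sum in percent (right). The MSN part is 23.8% to 24.2% of the sum in the si-NC libraries and 1.72% to 2.05% in the siRNA libraries, while the EZR and RDX parts keep nearly the same height in FPKM.

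Merlin was lower by a smaller factor. NF2 (gene 4771, chromosome 22) stood at 13.26, 12 and 12.04 FPKM in si-NC, at 8.79, 8.30 and 8.73 FPKM in si1-BCLIN25 and at 7.69, 8.81 and 7.90 FPKM in si2-BCLIN25. No siRNA library reached the lowest control, and the siRNA groups overlapped. The means of 12.4 ± 0.72, 8.61 ± 0.27 and 8.13 ± 0.60 FPKM (SD, n = 3 each) left 69.2% and 65.4% of the control level, log2 differences of -0.48 and -0.56. NF2 was near the middle of all genes in level, at the 53.4th percentile in si-NC.

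Both membrane partners were more than 3-fold lower than in si-NC. CD44 (gene 960, chromosome 11) had 212.21, 206.49 and 204.05 FPKM in si-NC, 58.30, 60.78 and 60.20 FPKM in si1-BCLIN25 and 59.66, 61.64 and 60.30 FPKM in si2-BCLIN25. The siRNA groups overlapped each other and lay far below the controls, with means of 208 ± 4.2, 59.8 ± 1.3 and 60.5 ± 1.0 FPKM (SD, n = 3 each). The log2 differences were -1.78 and -1.76, or 3.47-fold and 3.43-fold lower. The transcript remained abundant, at the 90.0th and 90.2th percentiles of genes in the siRNA groups against the 97.8th in si-NC. CD44 is spliced into many isoforms, and the single row for the gene does not separate them.

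By fold, podocalyxin came next after MSN. PODXL (gene 5420, chromosome 7) measured 78.58, 75.75 and 77.89 FPKM in si-NC, 21.01, 20.70 and 20.21 FPKM in si1-BCLIN25 and 19.86, 19.81 and 20.16 FPKM in si2-BCLIN25. The controls stood well apart from all siRNA libraries. Means were 77.4 ± 1.5, 20.6 ± 0.40 and 19.9 ± 0.19 FPKM (SD, n = 3 each), log2 differences of -1.86 and -1.90. The si2-BCLIN25 libraries were all slightly below the si1-BCLIN25 libraries, the 1 member whose siRNA groups did not overlap. Such separation between the siRNA groups in this direction was seen for 11.7% of all genes, and in either direction for 25.9% (14.1% higher).

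Across the 6 members, 5 had no overlap with si-NC, all lower, in each siRNA group, and 1 (RDX) overlapped. Among all 12317 genes, 64.7% did not overlap si-NC in si1-BCLIN25 (39% higher and 25.7% lower) and 67.1% in si2-BCLIN25 (40.5% higher and 26.6% lower), and since the members were chosen from these comparisons nothing is read from the contrast of those shares. The median log2 difference of the members was -1.13 and -1.16, beside 0.06 for all genes in each comparison.

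**Figure D3:**
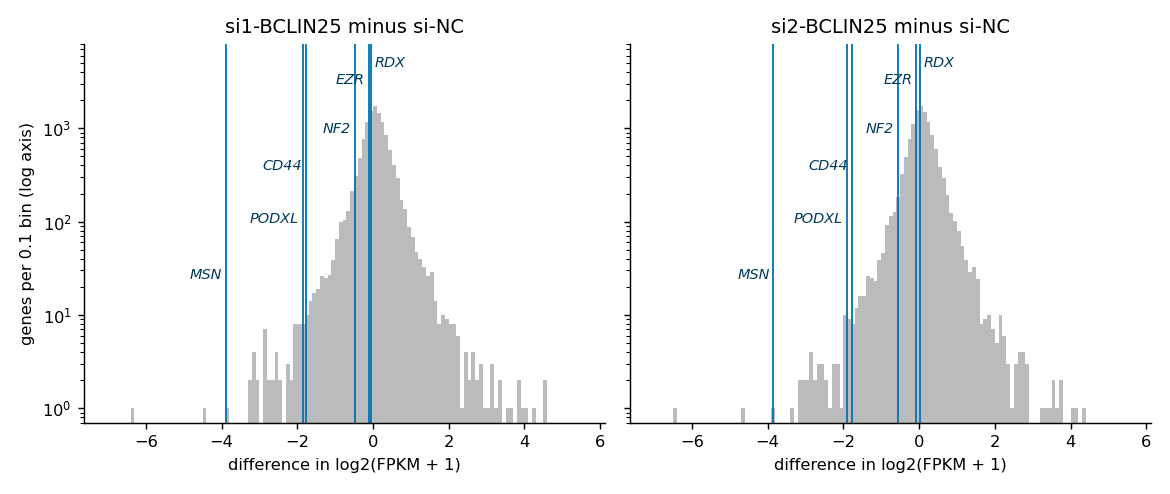
Histogram of the difference in log2(FPKM + 1) from si-NC over 12317 genes (grey, genes per bin on a log axis), for si1-BCLIN25 (left) and si2-BCLIN25 (right), with a blue line at each of the 6 members. MSN lies in the far left tail at -3.89 and -3.85, PODXL and CD44 between -1.76 and -1.90, NF2 at -0.48 and -0.56, and EZR and RDX close to 0.

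Promoter sequence from RefSeq (GRCh38.p14) was available for 5 of the 6 genes, all but PODXL. The stretches printed here are the 250 bases before the annotated start, for MSN and CD44, which were far below si-NC, and for EZR, which was close to it. MSN has 2 annotated starts, a distal one behind chrX:65588127-65588376 and a proximal one behind chrX:65667404-65667653, both on the plus strand, and the single MSN row does not say which start the remaining transcripts used. The CD44 stretch is chr11:35138921-35139170 on the plus strand and the EZR stretch chr6:158818236-158818485 on the minus strand. Capitals mark matches on either strand to GGGCGG, the core bound by SP and KLF factors (CCGCCC on the other strand), and to TGANTCA, the AP-1 motif, which reads the same on both strands. All are written 5′ to 3′.
MSN distal: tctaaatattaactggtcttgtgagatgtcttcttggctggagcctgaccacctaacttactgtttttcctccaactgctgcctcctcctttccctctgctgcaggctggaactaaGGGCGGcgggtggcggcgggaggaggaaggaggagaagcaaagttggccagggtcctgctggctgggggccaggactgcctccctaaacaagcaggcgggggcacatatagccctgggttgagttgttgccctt
MSN proximal: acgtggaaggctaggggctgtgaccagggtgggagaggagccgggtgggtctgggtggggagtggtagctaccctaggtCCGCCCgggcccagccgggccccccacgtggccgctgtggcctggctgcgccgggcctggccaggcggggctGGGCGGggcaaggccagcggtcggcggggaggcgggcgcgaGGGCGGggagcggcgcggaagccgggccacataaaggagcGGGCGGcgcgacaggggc
CD44: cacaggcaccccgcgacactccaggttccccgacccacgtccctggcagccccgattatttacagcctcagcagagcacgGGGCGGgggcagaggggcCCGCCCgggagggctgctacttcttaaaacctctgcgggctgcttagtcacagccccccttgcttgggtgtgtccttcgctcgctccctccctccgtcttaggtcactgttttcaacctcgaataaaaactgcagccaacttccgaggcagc
EZR: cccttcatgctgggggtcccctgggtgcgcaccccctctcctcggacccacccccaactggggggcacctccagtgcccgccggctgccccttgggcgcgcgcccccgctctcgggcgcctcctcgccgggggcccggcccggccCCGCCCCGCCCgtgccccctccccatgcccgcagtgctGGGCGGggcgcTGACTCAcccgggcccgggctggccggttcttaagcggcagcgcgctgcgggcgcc
The MSN starts differed in composition. The proximal stretch had 78.0% G and C with 26 CpG dinucleotides, and the distal one 57.2% with 5, beside medians of 58.0% and 11 over 35116 RefSeq promoters of the same length. GGGCGG occurred 1 time before the distal and 4 times before the proximal MSN start, 2 times before CD44 and 3 times before EZR, of which 2 overlap each other. RDX had 3 matches, of which 2 also overlap each other, and each of the 2 annotated NF2 starts had 1. The share of all promoters with at least 1 match was 42.6%. TGANTCA occurred 1 time among the members, 56 bases before the EZR start, and 6.6% of all promoters held it. The TEAD motif GGAATG, present in 11.9% of all promoters, was in none of the stretches. A match is a description of letters and not evidence of binding.

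The genes whose profiles over the 9 libraries lay nearest to each member were taken by Euclidean distance of log2(FPKM + 1) after subtraction of the si-NC mean. By this distance MSN had no close companion. Its nearest gene, the membrane protein gene TMEM200A at a distance of 1.49, went from 50.9 FPKM to 4.40 and 4.27 FPKM, and the next were the stromelysin MMP10 (1.68) and the ankyrin repeat gene ANKRD1 (1.70). ANKRD1 went from 13.4 to 0.517 and 0.647 FPKM. No gene lay within 0.5 of MSN, against 33 genes for CD44 and 23 for PODXL. The distance includes the size of the difference from si-NC, so a member with a large difference has few genes near it. These counts therefore largely restate the members' own differences.

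CD44 and PODXL resembled each other, at a distance of 0.298. Nearest to CD44 were the actin oxidising enzyme MICAL2 (0.157), the ERK phosphatase DUSP6 (0.178) and the lipid enzyme GPAT3 (0.201), and nearest to PODXL were the sheddase ADAM19 (0.129), DUSP6 again (0.158) and the sphingosine 1-phosphate receptor S1PR1 (0.189). DUSP6 went from 40.8 FPKM to 10.8 and 10.7 FPKM, and MICAL2 from 85.7 to 23.4 and 25.5 FPKM. NF2 was nearest to the ligand gene TGFB2 (0.126), PBDC1 (0.164) and FAM98A (0.166), within a field of 753 genes under 0.5. EZR (nearest ADIPOR1, MPDZ and HSP90AB1) and RDX (nearest SH3YL1, NAPG and RP2) had 4656 and 4739 genes within that distance, and the distance between EZR and RDX was 0.292.

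No neighbouring gene of MSN on the chromosome differed as MSN did. Among the 20 tested genes nearest to MSN, 10 on each side in RefSeq order, there were 7 rises and 1 fall with si1-BCLIN25 against 7 rises and 0 falls with si2-BCLIN25 by limma (adjusted p under 0.05). At an unadjusted p under 0.05 the falls with si2-BCLIN25 were 0 as well. The log2 differences of these genes ranged from -0.17 to 0.97 and from -0.14 to 0.88, far from the -3.89 and -3.85 of MSN. Of all genes tested 38.4% rose and 24.6% fell with si1-BCLIN25, beside 38.6% and 24.4% with si2-BCLIN25. The adjacent tested gene LAS1L was at 34.1, 35.1 and 32.5 FPKM in si-NC, si1-BCLIN25 and si2-BCLIN25.

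The surroundings of PODXL and CD44 were mixed. Around PODXL 9 of 20 neighbours rose and 6 fell with si1-BCLIN25, while with si2-BCLIN25 8 rose and 7 fell. Its adjacent gene CHCHD3, which shapes mitochondrial cristae, fell from 65.3 FPKM to 35.5 and 35.8 FPKM (log2 difference -0.86 and -0.85, limma adjusted p = 8.69e-09 and 1.04e-08), while MKLN1 on the other side was at 11.5, 11.4 and 12.2 FPKM. Around CD44 7 rose and 6 fell, then 9 rose and 4 fell. The adjacent FJX1 fell from 13.0 FPKM to 5.75 and 7.23 FPKM (-1.04 and -0.76, limma adjusted p = 1.43e-07 and 2.80e-06), and PDHX was at 23.6, 23.2 and 22.3 FPKM. Around NF2 10 rose and 2 fell, then 9 rose and 4 fell, and both adjacent genes rose, NIPSNAP1 from 24.4 FPKM to 43.5 and 42.2 FPKM and ZMAT5 from 5.67 to 8.52 and 8.17 FPKM. The genes around EZR and RDX, the members near their control level, were mixed too. Around EZR 6 rose and 5 fell, then 6 rose and 7 fell, and around RDX 6 rose and 7 fell, then 5 rose and 6 fell. Next to RDX, ZC3H12C, of the RNA-cutting regnase family, fell from 7.51 FPKM to 5.39 and 5.78 FPKM, and FDX1 differed by -0.02 and -0.04. Next to EZR, SYTL3 differed by 0.00 and 0.03. The extremes, named after their values were seen, were the cytokine gene LIF near NF2, at -2.02 and -2.10, and the reductase gene AKR1B10 near PODXL, at 2.27 and 2.10. AKR1B10 averaged 0.33 FPKM in si-NC and 5.36 and 4.68 FPKM in the siRNA groups. It passed the filter through siRNA libraries, so a fall could not have been called. Rises counted near RDX include POU2AF3, C11orf52 and, with si1-BCLIN25, LAYN, and those near NF2 include CASTOR1. The control means of these genes were also below 1 FPKM, so their rises carry the same limit. Over all 120 neighbours of the 6 members the median log2 difference was 0.03 in each comparison.

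**Figure D4:**
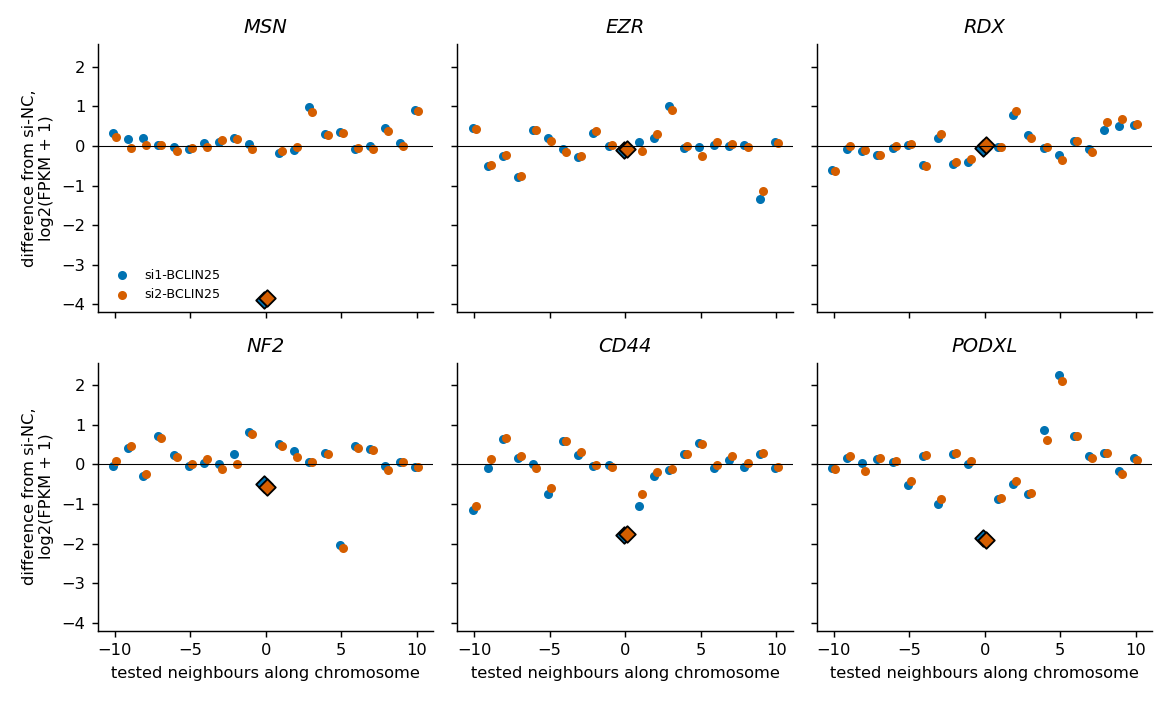
Difference from si-NC in log2(FPKM + 1) for the 10 tested genes on each side of each member (points, ordered along the chromosome, horizontal axis in gene steps) and for the member itself (diamonds at 0), in si1-BCLIN25 (blue) and si2-BCLIN25 (orange). The MSN diamonds lie near -3.9 while its neighbours stay between -0.17 and 0.97.

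Genes that work with the members were examined in 7 lists of 149 genes, none of them members, of which 147 had a row and 111 passed the filter. By limma with Benjamini-Hochberg adjustment over all 12317 genes, there were 53 falls and 29 rises with si1-BCLIN25 against 48 falls and 31 rises with si2-BCLIN25. The called share was 73.9% and 71.2% of those tested, beside 63.1% and 63% of all genes, and the median log2 difference was -0.12 and -0.07, beside 0.06 for all genes. Calls among all genes were 60.9% and 61.3% upward, 50.1% and 50.7% under quantile normalization and 52.1% and 52% under median centring, whereas calls in these lists were 35.4% and 39.2% upward (30.2% and 33.3% under quantile normalization, 26.5% and 29.9% under median centring). The lists were chosen with earlier results of these data known, so nothing is read from the contrast with all genes.

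Regulators of ERM phosphorylation moved in both directions. Among 20 tested kinases, phosphatases and related regulators, there were 9 falls and 5 rises with si1-BCLIN25 against 6 falls and 5 rises with si2-BCLIN25. MPRIP, which brings myosin phosphatase to actin filaments, fell from 91.1 ± 4.0 FPKM to 33.1 ± 0.87 and 34.5 ± 0.37 (SD, n = 3 each), log2 differences of -1.43 and -1.37 (limma adjusted p = 1.42e-11 and 2.37e-11, SE 0.039). The GTPase RHOB fell from 34.6 to 11.3 and 13.2 FPKM. Protein kinase C theta (PRKCQ), which can phosphorylate moesin, rose from 2.44 to 3.95 and 4.07 FPKM. The main ERM kinases, named after their values were seen, differed, as SLK fell from 25.9 to 18.4 and 19.9 FPKM and STK10 (LOK) passed the test in neither group, at 12.4, 11.6 and 11.5 FPKM.

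Among scaffolds and adaptors, 2 rose in each group and 3 and 2 fell, of 7 tested. NHERF1, the PDZ scaffold that binds ezrin's FERM domain beneath microvilli, rose from 16.3 ± 1.4 FPKM to 37.5 ± 0.99 and 34.6 ± 1.0 (SD, n = 3 each), log2 differences of 1.16 and 1.04 (limma adjusted p = 2.04e-09 and 6.21e-09, SE 0.054). Palladin (PALLD), an actin cross-linker that binds ezrin, rose from 29.4 to 72.1 and 74.0 FPKM. IQGAP1, a large adaptor of CDC42 and RAC1, fell from 106 to 78.5 and 84.7 FPKM, and the actin capper EPS8 from 15.5 to 13.2 and 13.3 FPKM.

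Among 13 tested membrane proteins whose tails bind ERM proteins, there were 4 rises and 3 falls with si1-BCLIN25 against 5 rises and 3 falls with si2-BCLIN25. L1CAM, a neural adhesion molecule also made by carcinomas, fell from 7.33 ± 0.64 FPKM to 1.92 ± 0.11 and 2.13 ± 0.15 (SD, n = 3 each), log2 differences of -1.51 and -1.41 (limma adjusted p = 2.21e-09 and 4.76e-09, SE 0.071). The mucin MUC1 rose from 0.287 to 1.52 and 1.83 FPKM, low levels at which the scale understates change. MUC1 passed the filter through siRNA libraries alone, so a fall could not have been called. CLIC1 and CLIC4, of the chloride intracellular channel family, went opposite ways, CLIC1 from 142 to 101 and 104 FPKM and CLIC4 from 71.4 to 100 and 108 FPKM. The podocalyxin relatives CD34 and PODXL2 were at or below 0.1 FPKM on average in every group.

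In the merlin and Hippo list more genes fell than rose. Among 17 tested genes there were 12 falls and 0 rises with si1-BCLIN25 against 10 falls and 2 rises with si2-BCLIN25, and the rises with si1-BCLIN25 were 0 also at an unadjusted limma p under 0.05. That made 70.6% called in each group, beside 63.1% and 63% of all genes, of which 24.6% and 24.4% fell. The list was chosen with earlier results known, and no test compared these shares. Its median log2 differences were -0.27 and -0.22. AMOTL2, an angiomotin family scaffold that binds YAP, fell from 33.9 ± 0.41 FPKM to 15.8 ± 0.42 and 16.8 ± 0.53 (SD, n = 3 each), log2 differences of -1.06 and -0.97 (limma adjusted p = 2.28e-10 and 5.76e-10, SE 0.039). The kinase LATS2 fell from 5.86 to 3.39 and 3.68 FPKM, its cofactor MOB1A from 57.4 to 39.1 and 41.1 FPKM, and PAK2, which phosphorylates merlin, from 39.0 to 29.4 and 29.8 FPKM.

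Among 30 tested proteins that share the FERM domain but lie outside the ERM family, there were 14 falls and 10 rises with si1-BCLIN25 against 15 falls and 8 rises with si2-BCLIN25. That made 80% and 76.7% called, beside 63.1% and 63% of all genes, and no test compared these shares. Kindlin-1 (FERMT1), an integrin activator, fell from 137 ± 3.4 FPKM to 36.7 ± 0.39 and 32.4 ± 0.24 (SD, n = 3 each), log2 differences of -1.87 and -2.04 (limma adjusted p = 2.96e-13 and 1.76e-13, SE 0.033). FRMD5 fell from 8.96 to 2.77 and 3.09 FPKM and FRMD4A from 9.14 to 4.31 and 4.44 FPKM, and the phosphatase PTPN13 rose from 12.6 to 26.3 and 26.2 FPKM.

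Among 17 tested genes for CD44 ligands, hyaluronan turnover, shedding and splicing, there were 9 falls and 7 rises with si1-BCLIN25 against 9 falls and 6 rises with si2-BCLIN25. Hyaluronan synthase 2 (HAS2), which makes the CD44 ligand, fell from 33.9 ± 0.39 FPKM to 4.92 ± 0.15 and 4.29 ± 0.34 (SD, n = 3 each), log2 differences of -2.56 and -2.72 (limma adjusted p = 9.64e-13 and 6.72e-13, SE 0.053). CEMIP2, a surface protein linked to hyaluronan breakdown, fell from 79.1 to 25.1 and 24.9 FPKM, while its relative CEMIP rose from 0.353 to 1.22 and 1.03 FPKM. CEMIP reached 1 FPKM in 5 siRNA libraries and 0 controls, so only a rise could have been called. Its log2 difference in si2-BCLIN25 was 0.58, 0.29 under quantile normalization and 1.31 with a pseudocount of 0.1. HMMR, a hyaluronan-binding spindle protein, rose from 22.2 to 40.3 and 38.9 FPKM. The splicing factors that include CD44 variant exons, named after their values were seen, went apart, with ESRP1 rising from 53.4 to 70.4 and 75.4 FPKM and ESRP2 falling from 7.61 to 5.26 and 5.51 FPKM.

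Of 21 listed actin bundlers of microvilli and protrusions, 7 were expressed enough to test, with 1 rise and 3 falls for si1-BCLIN25 against 3 rises and 3 falls for si2-BCLIN25. The brush border villin VIL1 was at or near 0. Plastin 3 (PLS3) fell from 138 to 116 and 125 FPKM, fascin (FSCN1) from 143 to 111 and 119.7 FPKM and MYO1D from 22.4 to 19.5 and 19.6 FPKM. EPS8L2 rose from 30.5 to 33.3 and 34.4 FPKM, and its si1-BCLIN25 call (limma adjusted p = 0.0304) was lost without si-NC replicate 1 or 3 or without si1-BCLIN25 replicate 1 or 2, with adjusted p = 0.0829, 0.104, 0.0765 and 0.105. The adjusted p was 0.162 under median centring and 0.0505 with only the 2 groups in the fit.

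**Figure D5:**
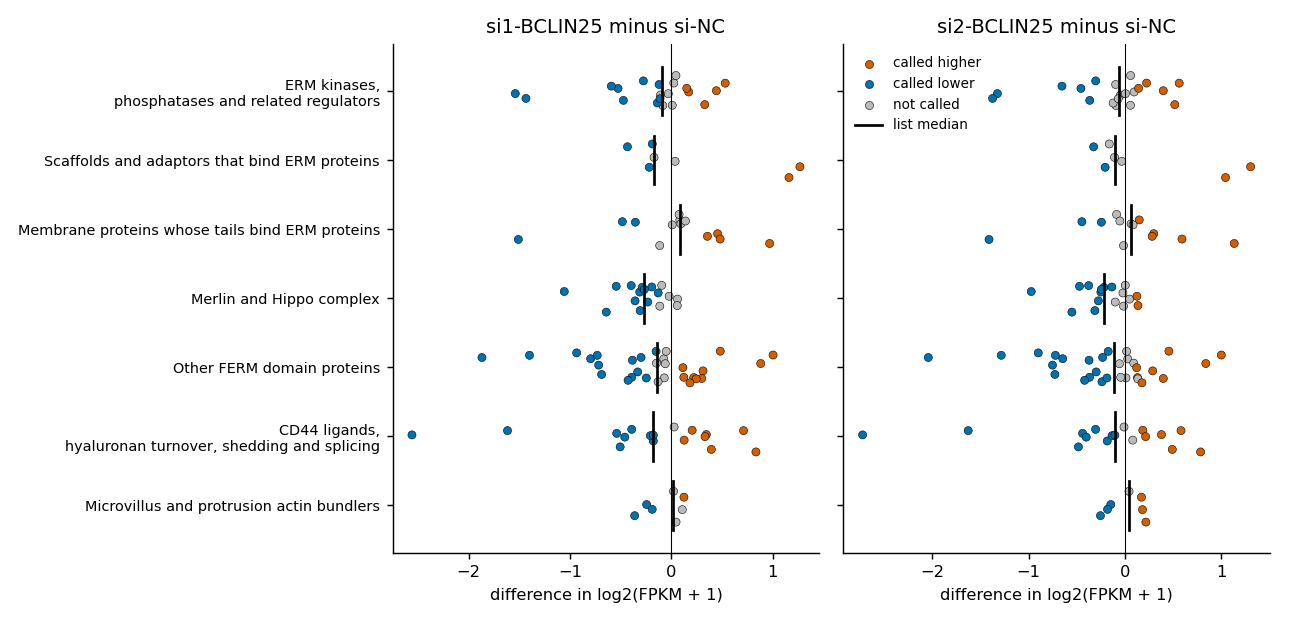
Difference from si-NC in log2(FPKM + 1) for 111 tested genes in 7 lists around the members, for si1-BCLIN25 (left) and si2-BCLIN25 (right); points are genes, coloured by the limma call, and black bars are list medians. HAS2 is the lowest point at -2.56 and -2.72, and the merlin and Hippo list has its points mostly left of 0.

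Between the siRNA groups, 1 of the 111 genes was called, FERMT1, lower in si2-BCLIN25 with a log2 difference of -0.17 (limma adjusted p = 0.0436, SE 0.033), while 17 (15.3%) had an unadjusted p under 0.05, beside 2187 (17.8%) of all genes. Among all genes 0.585% were called, 0.276% higher and 0.309% lower. FERMT1 lost this call when any si1-BCLIN25 or si2-BCLIN25 library was left out (adjusted p from 0.0658 to 0.186). Over the members, differences between the siRNA groups on the log2 scale ran from -0.075 (NF2) to 0.065 (RDX).

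Other cell types could carry moesin or CD44 transcripts, and their markers were measured in the same libraries. All 5 endothelial markers in the table were below 0.5 FPKM, summing to between 0.72 and 1.14 FPKM over the libraries of all groups. Leukocyte markers summed to 22.5 to 26.4 FPKM for si-NC, 23.7 to 26.0 for si1-BCLIN25 and 25.5 to 27.2 for si2-BCLIN25, mostly from CORO1A, with PTPRC between 0.85 and 1.61 FPKM, and of 5 tested 1 was called in each group, CD14, which rose from 0.33 to 1.07 and 1.10 FPKM and passed the filter through siRNA libraries alone. Fibroblast markers summed to 15.3 to 16.5 FPKM for si-NC, 27.9 to 29.8 for si1-BCLIN25 and 27.1 to 28.7 for si2-BCLIN25, with 3 of 3 tested higher in each group and COL1A2 and COL3A1 at or below 0.04 FPKM. LUM, 1 of those 3, passed the filter through siRNA libraries alone and could not have been called lower. Of 6 tested mesenchymal genes listed for MDA-MB-231, 5 fell and 1 rose in each group, with a list sum of 882 to 891 FPKM over the controls against 592 to 613 and 631 to 644 FPKM with the siRNAs. Of 8 epithelial genes, 5 fell and 3 rose in each group, and their sum was 1680 to 1760 FPKM for si-NC, against 2360 to 2610 FPKM over the siRNA libraries. KRT19 carried that difference, with means of 688, 1660 and 1560 FPKM, and without it the other 7 genes summed to 1025 to 1054 FPKM for si-NC, 823 to 871 for si1-BCLIN25 and 849 to 863 for si2-BCLIN25. The part of these markers in the members' levels was not tested.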

How the data were processed

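Values were the FPKM deposited by the authors in 1 table of 9 libraries, per the file headers. The submitters' processing notes list RSEM 1.2.12, Bowtie2 2.2.5, HISAT2 2.0.4 and, without saying for which step, DESeq2 1.4.5. RNA was taken with Trizol for BGI500 libraries, per the labels' protocols. Build, annotation and strand setting: not given in the sources used here. Per library, FPKM summed to 394081 to 419025. Among 969 rows with low values, 19.4% of values were whole multiples of the row's lowest within 0.1, where chance gives about 20%, so reads were not recovered and no counting interval is given. Gene names and order came from RefSeq (GRCh38.p14), which matched 17748 of 18064 rows. Antisense genes and pseudogenes of the members (EZR-AS1, CD44-AS1, MSNP1, EZRP1, RDXP1 to RDXP3) were not analysed here, and reads shared with them could be counted either way. BCLIN25 was not analysed here.

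Values were transformed to log2(FPKM + 1), a scale that shrinks differences of weakly expressed genes. The 12317 genes that reached 1 FPKM in 3 or more libraries entered limma 3.58.1 (R 4.3.3, eBayes with trend), with group means over the 9 libraries. Benjamini-Hochberg adjustment ran over these genes at a threshold of 0.05, and "rose", "fell" and "called" refer to it. The model was also run on simulated data with independent noise and no separate handling of controls. That run therefore cannot speak to such handling in these libraries. Members, gene lists and tests were chosen with earlier results of these data known. Named in each list were up to 4 genes with the largest mean change among those called in the same direction in both siRNA groups, besides 3 nearest profiles and the adjacent tested genes of each member. Some genes that this rule takes are not reported here.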

Additional observations from a re-analysis of the deposited data

How the results depend on the processing

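Directions of MSN, EZR, NF2, CD44 and PODXL against si-NC held under all 17 alternatives (quantile normalization, a pseudocount of 0.1, no filter, a minimum of 5 FPKM where the gene passed, no trend, only the 2 groups compared, a replicate block, each library left out, and median centring, the last chosen after the data were seen). With a pseudocount of 0.1 the log2 differences moved by more than the replicate spread to -4.16 and -4.11 for MSN and to -1.90 and -1.95 for PODXL. Quantile normalization and median centring each gave -3.94 for MSN in si1-BCLIN25. Median centring also gave -0.16 and -0.13 for EZR, -1.83 and -1.81 for CD44 and -1.91 and -1.96 for PODXL. Calls in the lists around the members numbered 66 to 86 in each siRNA group under every alternative, and those of all genes 6098 to 8385. Between the siRNA groups the count over all genes was not stable. It was 72, and 3 without a filter, 110 with a minimum of 5 FPKM, 13 without trend, 246 with only the 2 groups and 6 with the replicate block, and from 2 to 132 with 1 library left out. It was 132 and 111 without si-NC replicate 1 or 2, 5 without si1-BCLIN25 replicate 2 or 3, and 3, 8 and 2 without si2-BCLIN25 replicate 1, 2 or 3. For the lists it was 1, and 0 under quantile normalization, without a filter, without trend and with the replicate block, 3 with only the 2 groups and from 0 to 2 with 1 library left out (0 whichever siRNA library was left out, 2 without si-NC replicate 3). The causes of these moves were not tested. FERMT1 between the siRNA groups had adjusted p = 0.107 with the replicate block, 0.0608 under quantile normalization, 0.0575 without a filter and 0.106 without trend. The replicate block changed the side of the threshold for no other named gene of the lists. Same-numbered replicates did not deviate together (correlations from -0.164 to 0.139), so the numbers were not taken as pairs. With only the 2 groups compared, CEMIP did not pass the filter for si2-BCLIN25 and gave no value. Sequencing depth, unknown here, limits what can be said of genes near 1 FPKM.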
